A study of Mus musculus with 4 samples.

Results

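Cyclosporine A (CsA) treatment of MCT cells was compared with no treatment over all 84 genes of a PCR array for mouse nephrotoxicity, with Actb (beta-actin) kept apart as the reference. MCT is a kidney epithelial cell line of the mouse, and its tissue label is the convoluted tubule. The cells grew in DMEM with 10% FBS. Of the 4 samples of the study, 1 was untreated and 1 received CsA at 10 μg/ml, and the other two received the p38 MAPK inhibitor SB203580 at 10 μM or the NFAT inhibitor peptide 11R-VIVIT (labelled 11R) at 1 μM. The general methods give 24 h for these treatments. Each condition was 1 sample of 1 cell line, so no difference had a replicate error, no test was possible and all values below describe these samples.

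CsA is an immunosuppressant that binds cyclophilin, and the complex blocks the phosphatase calcineurin. Calcineurin normally removes phosphate from NFAT, a transcription factor that then enters the nucleus and switches on target genes. The drug is used after transplantation, and its dose is limited by injury to the kidney, where it constricts afferent arterioles and damages tubules. A nephrotoxicity array gathers genes of tubular injury, repair, drug handling, redox defence and metabolism that are known to move in damaged kidney.

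The measurement was the threshold cycle (Ct), the PCR cycle at which the SYBR green signal of an assay crosses a set line, so a later Ct means less template. The log2 change is the Ct of untreated cells minus the Ct with CsA, after the Ct of Actb was subtracted in each sample. Actb had a Ct of 18.1 without treatment and 17.8 with CsA. A Ct of 35 or later was set to 35, and the change of such a gene is a bound. This gave 70 measured changes, 8 lower bounds and 2 upper bounds, while 4 genes (Calb1, Gc, Igfbp1 and Uchl1) were past the limit in both samples and had no value. The Ct values of the array genes in these samples ran from 18.3 to 37.3. RNA was taken from whole cultures, so fewer cells expressing a gene and less RNA in each cell cannot be told apart.

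With Actb as the reference, 16 of 80 genes were at least 2-fold higher with CsA, a share of 20%, and 13 were at least 2-fold lower, a share of 16.2%. Together these made 36.2% of the genes with a value. The quartiles of the log2 changes were -0.50 and 0.79, and the median log2 change was 0.15. The choice of reference set the balance of rises and falls. When Actb was replaced by the median over the 69 genes that every sample detected (the array median), every log2 change was 0.50 lower, so a gene between 0 and 0.50 by Actb lies below 0 by the array median. By the array median 8 genes were at least 2-fold higher, or 10%, and 20 were at least 2-fold lower, or 25%. These made 35% in all. This reference compares the median Ct of the 69 genes in each sample and is not the median of their changes. By it the median log2 change of the genes with a value was -0.34, so it did not centre the changes on 0. Over all 84 genes the median Ct was 30.01 without treatment and 29.8 with CsA. Without a reference gene every change was 0.27 higher than by Actb, and 22 genes were at least 2-fold higher and 7 lower. The share of higher genes among those past 2-fold was 55.2% with Actb, 28.6% with the array median and 75.9% with no reference gene. The order of the genes and the distance of each from the array median were the same in all 3 cases.

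**Figure D1:**
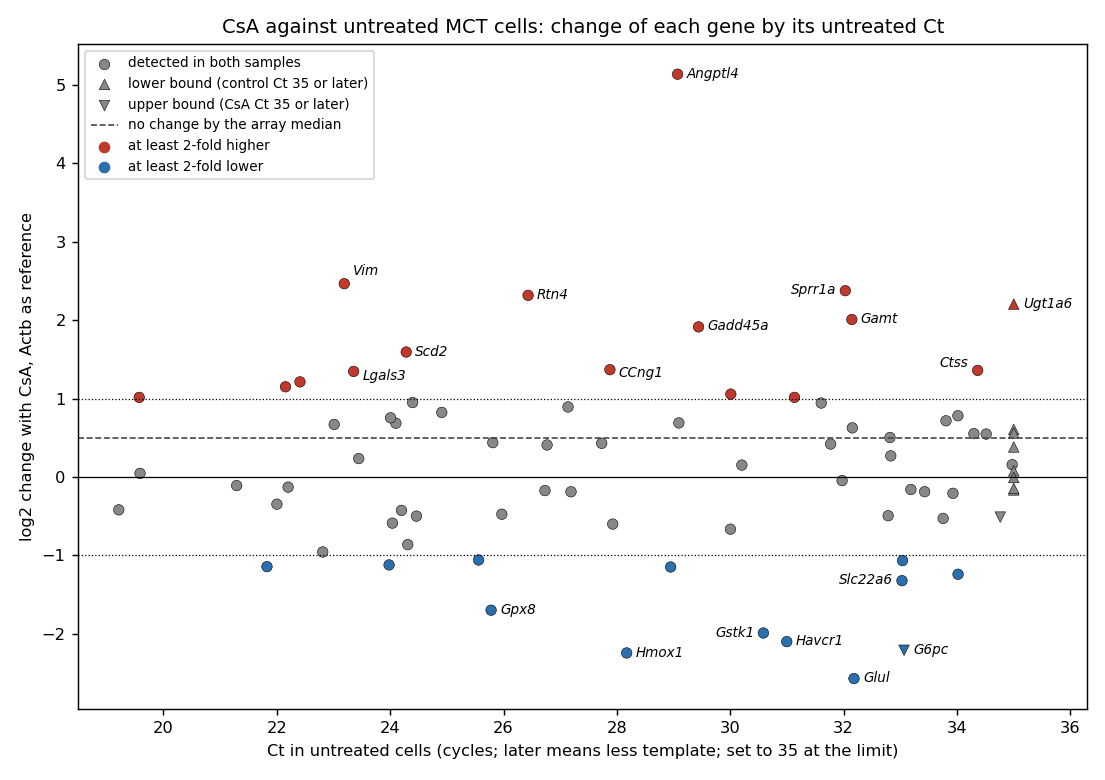
The log2 change with CsA (y axis, Actb as reference) is plotted against the Ct in untreated cells (x axis, cycles) for the 80 genes with a value, 1 point per gene. Red genes were at least 2-fold higher and blue genes at least 2-fold lower, triangles are bounds, and the dashed line at 0.50 marks no change by the array median. Angptl4 stands alone at 5.14, and changed genes occur at early and late cycles alike.

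Calls were not limited to late, imprecise cycles. Among 24 genes that crossed the threshold before cycle 25 in untreated cells, 6 were at least 2-fold higher and 2 lower. Among 17 genes between cycles 25 and 30, 4 were higher and 4 lower. Among 31 genes between cycles 30 and 35, 5 were higher and 7 lower. The falls were thus measured on late assays in 7 of 13 cases, where few template molecules make a single well less precise. Of the 12 genes already past 35, only Ugt1a6 had a bound of at least 2-fold. Against all 4 references tried (Actb, the array median, the median of early genes and none), 8 genes stayed at least 2-fold higher, namely Angptl4, Vim, Sprr1a, Rtn4, Ugt1a6, Gamt, Gadd45a and Scd2. Another 7 stayed at least 2-fold lower, namely Glul, Hmox1, G6pc, Havcr1, Gstk1, Gpx8 and Slc22a6.

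**Figure D2:**
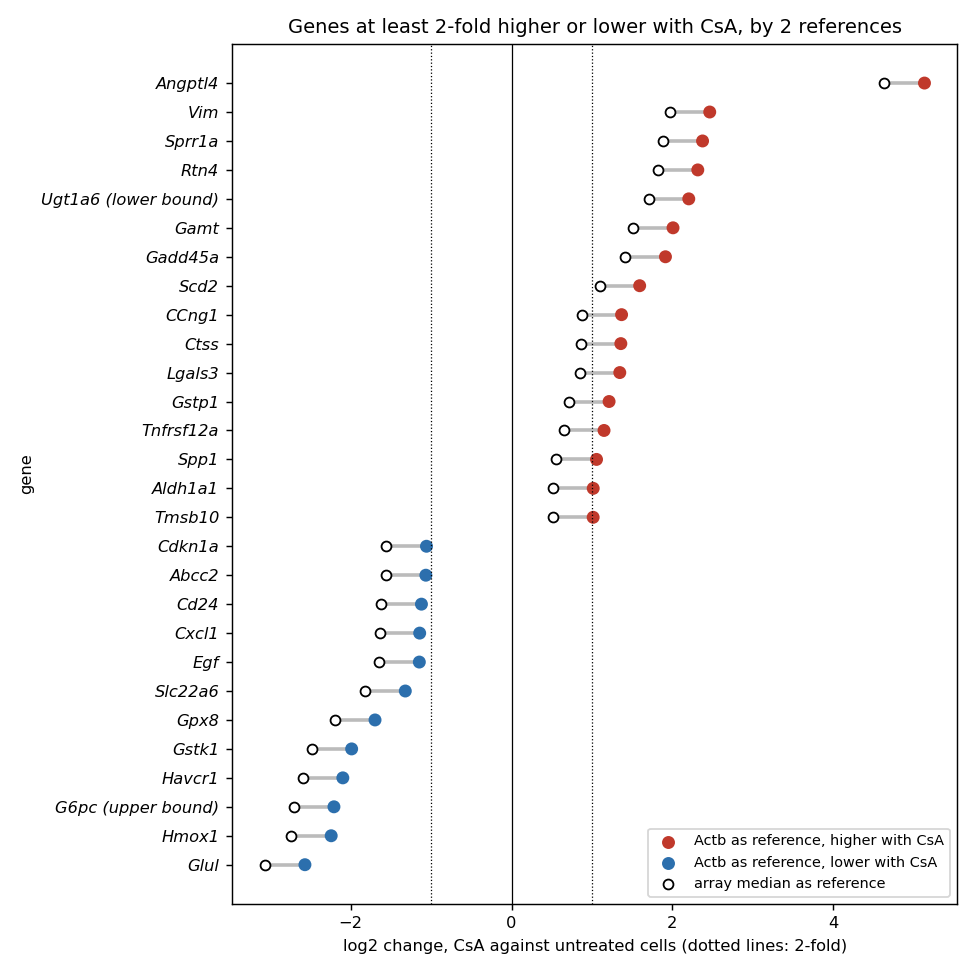
Of the 29 genes at least 2-fold higher (red) or lower (blue) with CsA by Actb, 28 are shown with their log2 change by Actb (filled) and by the array median (open). The x axis is the log2 change, the y axis lists the genes, and the dotted lines mark 2-fold. All 12 falls shown are larger by the array median, while 8 of the 16 rises, from CCng1 (0.87) down to Tmsb10 (0.52), come to lie inside 2-fold.

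The array held few markers of the labelled cell type. Of 10 proximal tubule markers listed, 3 were measured. Havcr1 had a Ct of 31.0 in untreated cells, Gatm 32.8 and Slc22a6 33.03. The mesenchymal markers Vim and Fn1 crossed earlier, at 23.2 and 22.2. Assays differ in efficiency, so these cycles describe each assay and do not rank the levels of the genes. Of 4 distal tubule markers listed, 2 were on the array. Egf had an untreated Ct of 28.9, and Calb1 was past the limit at 36.1. The podocyte and leukocyte markers that were listed were not on the array.

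For the 3 genes below the sequence around the annotated start is shown, because NFAT is the best known effector of the phosphatase that CsA blocks. Vim and Sprr1a were among the highest of the genes that were higher together in the cytoskeleton and regeneration group, and Glul had the largest measured fall. The sequences are from RefSeq (GRCm38.p6), 250 bases before the start and 50 after it, written 5′ to 3′ on the strand of the gene. Capitals mark the NFAT core GGAAA on either strand, so that TTTCC is the same word on the opposite strand. Vim lies at chr2:13574061-13574360 on the plus strand, Sprr1a at chr3:92485832-92486131 on the minus strand and Glul at chr1:153899679-153899978 on the plus strand.
Vim: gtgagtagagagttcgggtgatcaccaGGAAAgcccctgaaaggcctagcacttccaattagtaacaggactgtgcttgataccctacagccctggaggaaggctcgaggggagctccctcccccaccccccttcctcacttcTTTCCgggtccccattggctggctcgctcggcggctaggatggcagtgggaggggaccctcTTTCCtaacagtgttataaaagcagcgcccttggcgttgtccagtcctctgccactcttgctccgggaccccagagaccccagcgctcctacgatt
Sprr1a: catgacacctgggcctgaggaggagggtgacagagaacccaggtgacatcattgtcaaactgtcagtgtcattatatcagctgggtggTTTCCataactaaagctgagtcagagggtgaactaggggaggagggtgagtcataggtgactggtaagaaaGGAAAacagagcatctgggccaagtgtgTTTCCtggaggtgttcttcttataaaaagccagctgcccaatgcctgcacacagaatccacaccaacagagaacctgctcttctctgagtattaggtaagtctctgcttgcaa
Glul: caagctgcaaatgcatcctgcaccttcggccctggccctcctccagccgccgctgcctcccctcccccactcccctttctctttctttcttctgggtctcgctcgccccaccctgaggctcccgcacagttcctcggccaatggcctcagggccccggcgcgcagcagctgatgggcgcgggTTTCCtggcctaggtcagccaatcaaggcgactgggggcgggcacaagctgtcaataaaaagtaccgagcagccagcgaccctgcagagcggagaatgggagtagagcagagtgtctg

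The Vim and Sprr1a windows held 3 cores each and the Glul window held 1. This short word is common, occurring in 61.3% of 32851 promoter windows of the same length. Of the 84 genes, 63 matched a window, and several matched more than 1. Angptl4 and Hmox1 were among those that matched none. Windows of genes at least 2-fold higher held the core in 12 of 20 cases (60%) and those of genes at least 2-fold lower in 9 of 14 (64.3%), both close to the share of all windows. The AP-1 site TGANTCA, which reads the same on both strands and binds the usual partner of NFAT, was in 7.81% of all windows. It was in 5 of 20 windows of higher genes (Aldh1a1, Gstp1, Rtn4, Sprr1a and Ugt1a6) and in 1 of 14 of lower genes (Havcr1). The remaining matched genes of the array held it in 5 of 45 windows (11.1%). These small counts were not tested. These matches describe letters in a window and are no measure of binding.

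Genes of the cytoskeleton and of regeneration were the highest group. All 4 members with a value were at least 2-fold higher, beside 20% of all genes. The median log2 change was 2.35 against 0.15 over all genes, a gap of 2.19 that does not depend on the reference. The group lists were drawn up with earlier results of these data known, so this rank is not independent of those results. Vim encodes vimentin, the intermediate filament protein of mesenchymal and dedifferentiated epithelial cells. Its Ct went from 23.2 to 20.5, which was 5.52-fold higher by Actb and 3.91-fold by the array median. Sprr1a, a cornified envelope protein also induced in injured neurons, went from 32.03 to 29.4 (5.19-fold). Rtn4, which encodes the reticulon Nogo that shapes the endoplasmic reticulum, went from 26.4 to 23.8 (4.98-fold). Vim, Sprr1a and Rtn4 thus lay within 0.15 of each other on the log2 scale. Tmsb10, thymosin beta 10, which binds actin monomers, was already early at 19.6 and went to 18.3. Its log2 change of 1.02 was just past 2-fold, and was 0.52 by the array median. Uchl1, a ubiquitin hydrolase, was past the limit in both samples.

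The single largest change was in lipid metabolism. Angptl4 encodes a secreted inhibitor of lipoprotein lipase that responds to fasting, PPAR ligands and hypoxia. Its Ct fell from 29.1 to 23.7, and it was 35.2-fold higher by Actb and 24.9-fold by the array median. By Actb the gap to the next gene, Vim, was 2.67 on the log2 scale, larger than the distance of Vim from 0 (2.47). Without a reference gene the log2 change of Vim was 2.74, larger than that gap. Scd2, a stearoyl-CoA desaturase that makes monounsaturated fatty acids, went from 24.3 to 22.4 and was 3.02-fold higher. Idh1, which supplies cytosolic NADPH, was 1.77-fold higher. Rgn (regucalcin, a calcium-binding gluconolactonase) was 1.42-fold higher, and by the array median its log2 change was 0.01. G6pc, the phosphatase that releases free glucose in gluconeogenesis, moved the other way. Its Ct was 33.1 in untreated cells and 35.1 with CsA, past the limit, so it was at least 4.62-fold lower. The 6 genes thus comprised 2 higher, 1 lower and 3 inside 2-fold, beside 20% higher and 16.2% lower over all genes. The median log2 change of the 6 was 0.66.

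Transporters were the lowest of the 12 groups by median. Of 5 members, 3 were at least 2-fold lower, beside 16.2% of all genes. None was higher by as much, beside 20% of all genes. The median log2 change was -1.07, or -1.22 relative to all genes. Slc22a6 encodes OAT1, the basolateral uptake carrier for organic anions of the proximal tubule, and its Ct went from 33.03 to 34.1 (log2 change -1.32). Abcc2 (MRP2, an apical efflux pump for conjugates) went from 33.04 to 33.8 (-1.07). Both were detected late, with about 1 cycle of difference between single wells, and with no reference gene Abcc2 (-0.79) lay inside 2-fold. With a limit of 32 cycles the 3 lower genes had no value and the median of the remaining transporters was -0.03. Slc22a5 (OCTN2, the carnitine carrier), the earliest of the group at 25.97, had a log2 change of -0.47. Abcb1b, a P-glycoprotein gene whose product exports CsA itself, was 1.34-fold higher by Actb and had a log2 change of -0.08 by the array median.

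Among redox genes, none of the 9 members was at least 2-fold higher, beside 20% of all genes. The 2 that were lower are a share near the 16.2% over all genes, and the median log2 change was -0.43 against 0.15. Hmox1, the inducible heme oxygenase that degrades heme under oxidative stress, went from a Ct of 28.2 to 30.1. Its log2 change was -2.24 by Actb, -2.74 by the array median and -1.97 without a reference. Gpx8, a peroxidase of the endoplasmic reticulum, went from 25.8 to 27.2 (-1.70). The constitutive heme oxygenase Hmox2 had a log2 change of -0.60, Ccs (the copper chaperone of superoxide dismutase) -0.86 and the mitochondrial superoxide dismutase Sod2 -0.43. By the array median Ccs (-1.36) and Hmox2 (-1.10) passed 2-fold as well, so that 4 of the 9 were lower, beside 25% of all genes by that reference. On the other side, catalase (Cat) was 1.61-fold and the superoxide-producing oxidase Nox4 1.54-fold higher by Actb, both inside 2-fold. By the array median Cat was 1.14-fold and Nox4 1.09-fold higher. The assay named Mt1a had a log2 change of -0.35 with CsA, but in the mouse annotation that symbol is found as another name of Polr2k alone, and which transcript the assay read is not settled. Sod3 (extracellular superoxide dismutase) had only a lower bound, of -0.16.

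**Figure D3:**
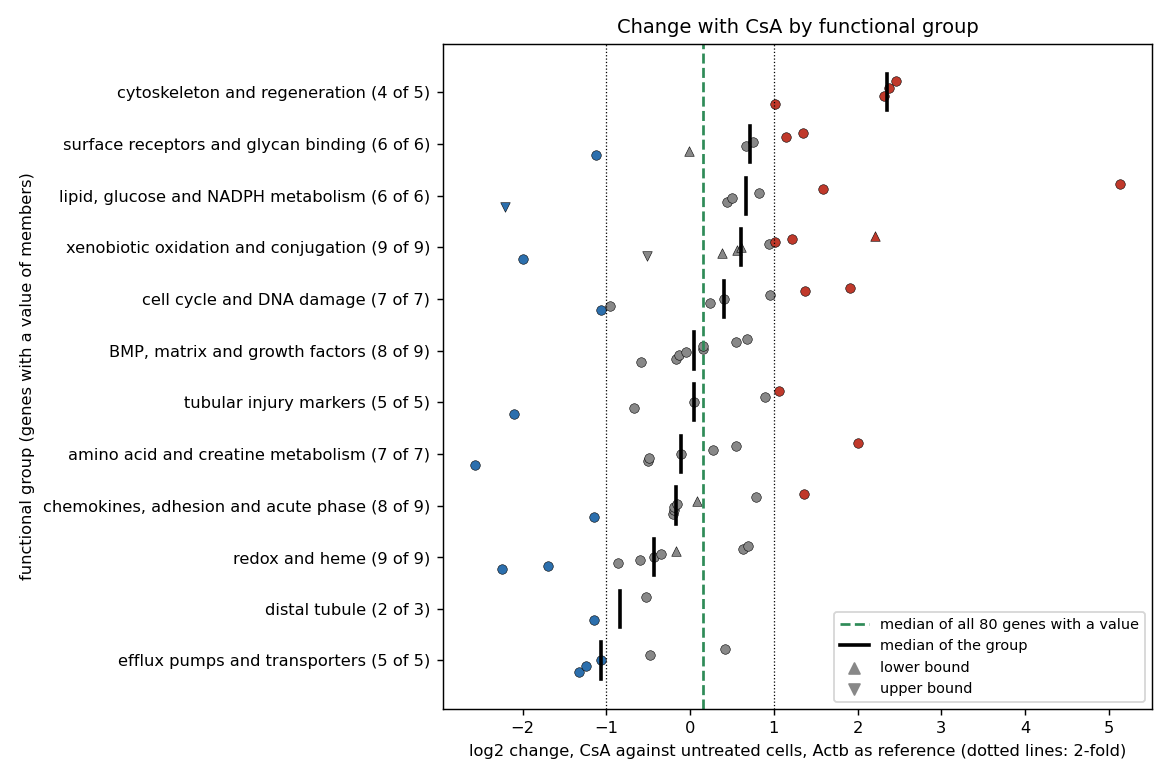
Each point is 1 gene, placed by its log2 change with CsA by Actb (x axis), in the 12 functional groups (y axis, with the genes that have a value of all members). Black bars are group medians, the dashed green line is the median of all 80 genes (0.15), red and blue genes are at least 2-fold higher or lower, and triangles are bounds. The cytoskeleton and regeneration group (median 2.35) and the transporters (median -1.07) stand at the ends, and most groups span both directions.

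The drug-metabolizing enzymes were split. Of 9 members, 3 were at least 2-fold higher and 1 lower, beside 20% and 16.2% of all genes. The median log2 change was 0.61, in which 5 of the 9 values are bounds. By the array median 1 was higher and 2 were lower, with a median of 0.11. Ugt1a6, a glucuronosyltransferase for phenols, went from past the limit (35.4) to 32.5 and was at least 4.61-fold higher. The annotation places this symbol with Ugt1a6a, and genes of the Ugt1a locus share exons, so the assay may read several of them. Ugt1a1, the bilirubin transferase of the same locus, had a lower bound of 0.56. Gstp1, a glutathione transferase with a near-identical mouse copy that the assay may also read, was early at 22.4 and went to 20.9 (2.32-fold higher by Actb and 1.64-fold by the array median). Gstk1, the transferase of mitochondria and peroxisomes, went from 30.6 to 32.3 and was lower by a log2 change of -1.99. Both glutathione transferases thus lay 3.20 apart on the log2 scale, whatever the reference. Aldh1a1, which makes retinoic acid, was 2.02-fold higher by Actb, with a log2 change of 0.52 by the array median. Cyp2d4 was 1.92-fold higher by Actb, just inside 2-fold, and 1.36-fold by the array median. The quinone reductase Nqo1 and Cyp2c11 had lower bounds of 0.61 and 0.38, and the monooxygenase Fmo2 an upper bound of -0.51, or -1.01 by the array median. The symbols Cyp2c11 and Cyp2d4 are not in the mouse annotation used.

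Tubular injury markers did not move together. Of 5 genes, 1 was at least 2-fold higher and 1 lower, shares near the 20% and 16.2% over all genes. The median log2 change was 0.05 (-0.45 by the array median). Havcr1 encodes KIM-1, the phosphatidylserine receptor that appears on injured proximal tubule cells. Its Ct went from 31.0 to 32.8, a log2 change of -2.10 by Actb and -2.60 by the array median. Spp1 (osteopontin, a secreted phosphoprotein) went from 30.01 to 28.7 and was 2.08-fold higher by Actb and 1.47-fold by the array median, so that no injury marker was at least 2-fold higher by the latter. Lcn2 (NGAL, an iron-siderophore carrier) went from 27.1 to 25.97 and was 1.86-fold higher by Actb and 1.32-fold by the array median. Clu (clusterin, a secreted chaperone) had a log2 change of -0.67, which passed 2-fold by the array median (-1.16). Cst3 (cystatin C, a filtered protease inhibitor), with an untreated Ct of 19.6, changed 1.03-fold.

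Of 6 surface receptors and lectins, 2 were at least 2-fold higher by Actb and 1 lower, beside 20% and 16.2% of all genes, and the median log2 change was 0.71. By the array median none was at least 2-fold higher, 1 was lower, and the median was 0.22. Lgals3 (galectin-3, which binds beta-galactosides) went from 23.4 to 21.7 (2.54-fold higher by Actb and 1.80-fold by the array median). Tnfrsf12a encodes Fn14, the receptor of the cytokine TWEAK. It went from 22.2 to 20.7 and was 2.22-fold higher by Actb and 1.57-fold by the array median. The hyaluronan receptor Cd44 (1.69-fold) and annexin A5 (Anxa5, 1.59-fold) lay inside 2-fold. The 4 genes named so far in this group were all early, between cycles 22.2 and 24.01 in untreated cells. Cd24, a glycoprotein of immature tubule cells, was as early at 23.98 but went to 24.8, with a log2 change of -1.12. Gpnmb, a glycoprotein of macrophages and injured tubules, had a lower bound of -0.01.

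Genes of the cell cycle and DNA damage response pointed both ways. Of 7 genes, 2 were at least 2-fold higher and 1 lower, beside 20% and 16.2% of all genes. The median log2 change of the group was 0.41 (-0.09 by the array median). Gadd45a, a growth arrest gene induced by DNA damage, went from 29.4 to 27.3 and was 3.77-fold higher. CCng1 (cyclin G1, a p53 target) went from 27.9 to 26.2 (2.58-fold), with a log2 change of 0.87 by the array median. Cdkn1a (p21, the cyclin-dependent kinase inhibitor that p53 induces) went from 25.6 to 26.3, a log2 change of -1.06. The 3 genes are textbook p53 targets, and they did not share a direction. CCnd1 (cyclin D1) was 1.93-fold higher by Actb and 1.37-fold by the array median. Mcm6, a subunit of the replicative helicase, had a log2 change of -0.96, or -1.45 by the array median. Btg2, an antiproliferative p53 target (0.41), and the stress transcription factor Atf3 (0.24) changed less.

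Amino acid and creatine enzymes held the largest measured fall and a large rise. Glul encodes glutamine synthetase, and its Ct went from 32.2 to 34.5, a log2 change of -2.57 by Actb and -3.07 by the array median. Gamt, which makes creatine from guanidinoacetate, went from 32.1 to 29.9 and was 4.02-fold higher. Gatm, the enzyme of the step before it, changed 1.21-fold. The remaining members, Aass (lysine breakdown), Bhmt (homocysteine methylation), Oat (ornithine aminotransferase) and Odc1 (polyamine synthesis), lay between -0.50 and 0.55. The median of the 7 genes was -0.11 (0.16 without a reference gene). Of them 1 was at least 2-fold higher and 1 lower, beside 20% and 16.2% of all genes.

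Chemokines and acute phase genes showed little change by Actb, with a median log2 change of -0.17 (0.10 without a reference gene). Of 8 genes, 1 was at least 2-fold higher and 1 lower, beside 20% and 16.2% of all genes. Cxcl1, a neutrophil chemoattractant, was the early member at 21.8 and went to 22.7, a log2 change of -1.14. Ctss (cathepsin S, a lysosomal protease of antigen-presenting cells) went from 34.4 to 32.7 on a late assay, and was 2.57-fold higher by Actb and 1.82-fold by the array median, inside 2-fold. Cxcl10 (-0.21), Ccl3 (-0.19), ceruloplasmin (Cp, -0.19) and the adhesion molecule Vcam1 (-0.16) lay close together below 0. Without a reference gene all 4 lay above 0, from 0.07 for Cxcl10 to 0.11 for Vcam1. The protease inhibitor A2m, at an untreated Ct of 34.02, was 1.72-fold higher by Actb and 1.22-fold by the array median. Fibrinogen beta (Fgb) had a lower bound of 0.08.

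None of the 8 matrix, BMP and growth factor genes with a value reached 2-fold by Actb, beside 36.2% of all genes. The log2 changes of these 8 ran from -0.59 for Bmp4, a ligand of the TGF-beta family, to 0.69 for Cyr61, a matricellular protein now named Ccn1. Fibronectin (Fn1, -0.13), the metalloproteinase inhibitor Timp1 (-0.05) and the procollagen C-proteinase Bmp1 (-0.17) lay near 0, so the early mesenchymal gene Fn1 did not share the rise of Vim. The calcification inhibitor Mgp (0.16), the growth hormone receptor Ghr (0.15) and Igfbp3, a carrier of insulin-like growth factors (0.55), were above 0. By the array median Mgp (-0.34) and Ghr (-0.35) were below it, and Bmp4 was lower at -1.09. Of the distal tubule genes, Egf went from 28.9 to 29.8 (-1.15), the kallikrein Klk1b3 had a log2 change of -0.53 (-1.03 by the array median, past 2-fold) and Calb1 (calbindin) had no value. Among the genes left over, the inositol polyphosphate kinase Ipmk had a log2 change of 0.72, the cytokine signalling inhibitor Socs3 0.43 and the chaperone Hsp90aa1 -0.42.

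The same genes are set beside the other treatments as values, since all 3 comparisons share the untreated sample. With SB203580, 12 of 79 genes were at least 2-fold higher (15.2%) and 7 lower (8.86%), and with 11R-VIVIT 4 of 76 were higher (5.26%) and 3 lower (3.95%). Of the genes at least 2-fold higher with CsA, 15 were detected in all 4 samples, and the CsA sample was the highest of the 4 for 13 of them. The exceptions were Gamt and Spp1, which were highest with SB203580. Of the 12 lower genes detected in all samples, the CsA sample was the lowest for 9, and the exceptions were Cd24, Cdkn1a and Egf, each lowest with SB203580. The genes were picked for a high or low CsA value against the untreated sample, which favours the CsA sample in these orders. The orders compare single samples and were not tested.

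Several falls differed in sign from the other treatments. Havcr1, at a Ct of 32.8 with CsA, was at 30.1 with SB203580 and 30.3 with 11R-VIVIT, and its log2 changes were -2.10, 0.59 and 0.67. In the same order of agents, the log2 changes of Slc22a6 were -1.32, 0.66 and 0.27. Those of Abcc2 were -1.07, 0.43 and 0.31. G6pc was at most -2.21 after CsA, beside 0.23 and 0.86. By Actb these genes were lower with CsA than with no treatment and higher than it with the other agents. The smallest values of the other agents (0.23, 0.27 and 0.31) are small differences between single wells. Values of those agents are given by Actb only, and the smaller ones may change sign by another reference. The median Ct over all 84 genes was 30.01 without treatment, 29.3 with SB203580 and 30.05 with 11R-VIVIT. The Ct of G6pc was 33.1 without treatment and 32.5 with SB203580. For Glul the other treatments stood near untreated cells, at -0.30 with SB203580 and -0.03 with 11R-VIVIT. For Hmox1 the SB203580 sample was low too (-1.74) and the 11R-VIVIT sample was not (0.16). Cd24 and Cdkn1a lay below untreated cells after every agent. In the order used for Havcr1, Cd24 was at -1.12, -1.44 and -1.03, and Cdkn1a at -1.06, -1.36 and -0.85. The untreated sample thus stood apart from all treated samples for both genes, and their falls were not particular to CsA. Whether the single untreated well or the agents account for this was not tested.

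Among the rises, Scd2 (1.59 with CsA) was at 0.04 with SB203580 and -0.05 with 11R-VIVIT. CCng1 was at 1.37, -0.14 and -0.22 in the same order, and Tnfrsf12a at 1.15, -0.07 and 0.08. Vim was intermediate with SB203580 (0.82) and at 0.00 with 11R-VIVIT. Angptl4 (1.77), Rtn4 (1.21), Gadd45a (1.20), Sprr1a (1.12), Gamt (2.84) and Spp1 (1.11) were at least 2-fold higher with SB203580 too. The log2 change of Angptl4 was 0.88 with 11R-VIVIT and that of Rtn4 was 0.71. Ctss had nearly the same value with each agent, at 1.36, 1.25 and 1.35, which places its untreated Ct of 34.4 apart from the other samples.

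**Figure D4:**
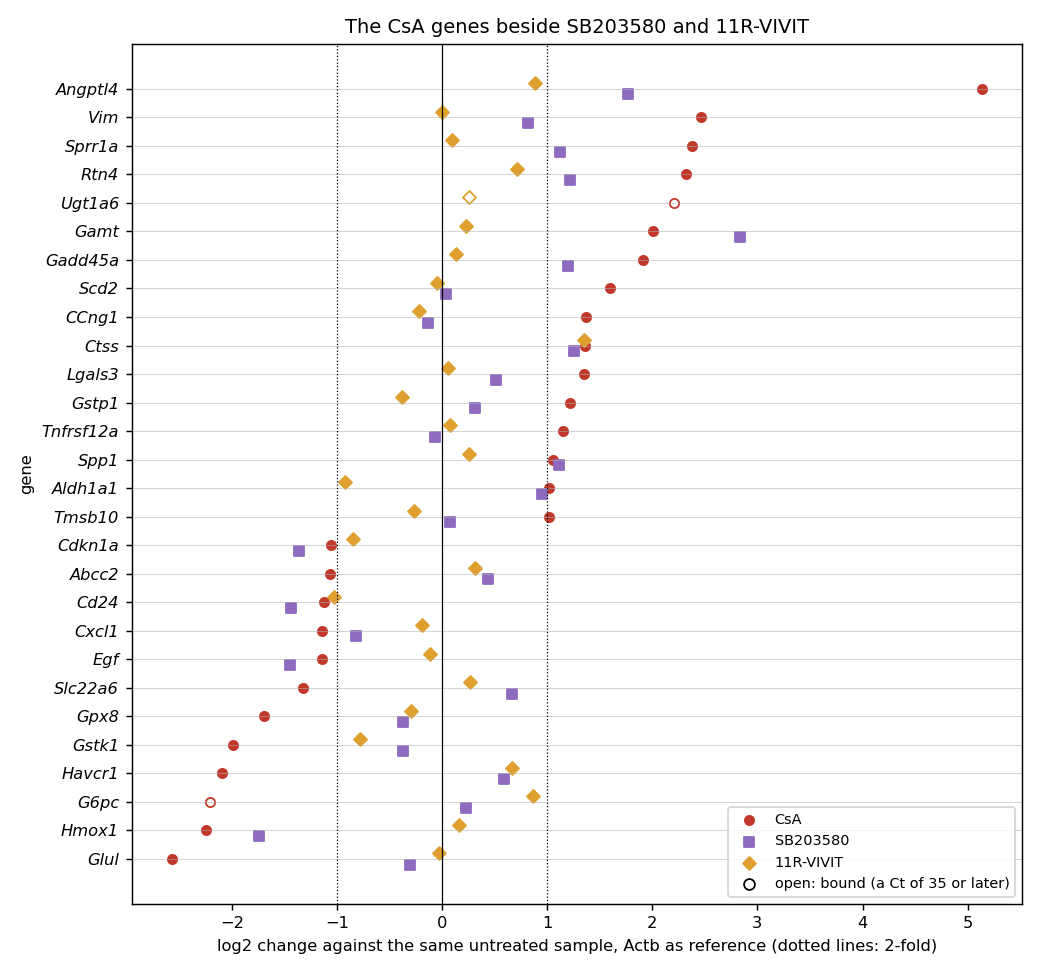
For 28 of the 29 genes past 2-fold with CsA (y axis), the log2 change against the shared untreated sample (x axis, Actb as reference) is shown for CsA (circles), SB203580 (squares) and 11R-VIVIT (diamonds), with open symbols for bounds. Havcr1, Slc22a6, Abcc2 and G6pc lie below 0 with CsA and above 0 with the other agents, and Ctss has the 3 symbols together.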

How the data were processed

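Total RNA of MCT cells was extracted with TRIzol, reverse transcribed (PrimeScript) and measured with SYBR green on an RT2 Profiler array for mouse nephrotoxicity. The authors deposited raw Ct values, 1 per gene and sample, with no normalization, and a second table of their own fold changes (ratios to the untreated sample), which was not used. The instrument and threshold settings are not given in the sources used here. The methods normalize to the housekeeping genes of the array, and Actb is the one in the table analysed here. For the log2 change, a doubling of product per cycle was assumed (base 2). Ct values of 35 or later were set to 35.

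The genes to be named were those at least 2-fold higher or lower with CsA by Actb or by the array median, Tnfrsf12a, and the highest and lowest member of each group, while other genes are given for completeness. Of the 84 genes, 72 fell into groups by listed symbols and 12 were placed by known function after the symbols were seen. The members and lists were chosen with earlier results of these data known. Results for 3 array genes are not reported here, although these genes are in the counts and group medians. Of the symbols, 77 matched GRCm38.p6, 5 matched a synonym and 2 matched neither. Ct values have no depth, and precision is limited by having 1 sample per condition. Calculations were tested on simulated data and were run in Python 3.11.15 with pandas 2.3.3, numpy 2.4.6 and, for plots, matplotlib 3.10.9.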

Additional observations from a re-analysis of the deposited data

How the results depend on the processing

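With 1 sample per condition the well error is unknown, late cycles are the least precise, and no value could be checked by leaving out a replicate. No paired analysis was possible because each group has 1 sample. Of 236 recalculated changes of 41 named genes over 6 settings, 193 kept their sign and side of 2-fold, 27 came to lie inside 2-fold, 14 passed it and 2 changed sign, both of Abcb1b (-0.077 by the array median and -0.15 by the median of early genes). With a Ct limit of 32 only 31 of the 41 genes had a value, and the others are not in this tally for that setting. Those without a value included Glul, G6pc, Slc22a6, Abcc2, Ugt1a6 and Ctss. By construction, another reference moves every gene by the same amount. Genes at least 2-fold higher numbered 8 by the array median, 8 by the median of early genes, 28 at 1.5-fold and 8 at 3-fold, against 16. Genes at least 2-fold lower numbered 20 by the array median, 23 by the median of early genes, 7 without a reference, 8 with a Ct limit of 32 (fewer genes with a value) and 6 at 3-fold, against 13.

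By the array median and by the median of early genes, the group medians became -0.45 and -0.52 for tubular injury markers, -0.089 and -0.16 for the cell cycle, -0.44 and -0.51 for matrix and growth factors, and -1.34 and -1.40 for distal tubule genes. Without a reference gene they became 0.10 for chemokines, 0.16 for amino acid enzymes and -0.79 for transporters. With a Ct limit of 32 they were -0.027 for transporters, 1.21 for lipid and glucose genes, -0.087 for matrix genes and -1.15 for distal tubule genes. With no Ct limit they were -0.046 for matrix genes and -1.15 for distal tubule genes, and with an amplification base of 1.9 that of the transporters was -0.99.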
